A study of Homo sapiens with 5 samples.

Results

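The genes described here encode 56 proteins that write or erase histone marks or that belong to the SWI/SNF remodelling complex. They were taken from a fixed list of 15 histone demethylases, 20 histone methyltransferases, 9 histone deacetylases and 12 SWI/SNF subunits, out of the 19970 that code for protein on the autosomes and X. Occupancy of the retinoblastoma protein (Rb) was profiled by CUT&RUN, where the antibody tethers a nuclease beside its target and the DNA cut free is sequenced. All libraries come from a single line, ZR-75-1, a breast cancer cell line positive for the oestrogen receptor, of parental genotype with no engineered allele. The cells received abemaciclib at 500 nM, an inhibitor of the kinases CDK4 and CDK6, or the solvent DMSO, for 4 days. There were 2 Rb libraries for DMSO, 2 Rb libraries for abemaciclib and 1 negative-control library, made with an IgG2a antibody from DMSO-treated cells. Cell identity was taken from the labels, because a list of binding sites holds no expression values.

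Rb is a brake on the cell cycle. Cyclin-dependent kinases phosphorylate it and release it from E2F transcription factors, and CDK4/6 inhibitors keep it hypophosphorylated and able to bind chromatin. Rb is known to bind several of the enzymes studied here. Among them are the deacetylases HDAC1, HDAC2 and HDAC3, the methyltransferase SUV39H1 and the H4K20 methyltransferases KMT5B and KMT5C. Others are the SWI/SNF ATPases SMARCA2 and SMARCA4, and KDM5A was first isolated as an Rb-binding protein. The comparison below asks whether the genes that encode these proteins were themselves occupied by Rb.

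A gene was counted as bound in a library when at least 1 bp of a peak lay between 2000 bp upstream and 500 bp downstream of any of its annotated transcription start sites. The DMSO libraries held 1438 and 2582 peaks, the abemaciclib libraries 13960 and 12234, and the IgG2a library 589, of which 85.7% lay outside chromosomes 1 to 22 and X. The height of a peak is given as its summit enrichment, the number of fragments over the summit divided by the mean fragment coverage of that library. It takes no account of raised background near a peak. The peak caller's fold over local background does, so genes can order differently by fold. The mean coverage was 0.649 fragments in DMSO replicate 1, 0.677 in DMSO replicate 2, 0.656 in abemaciclib replicate 1, 0.521 in abemaciclib replicate 2 and 0.531 in the IgG2a library. At that background the lowest peak called had 6 fragments in each DMSO library and 5 in each abemaciclib library, so a promoter without a peak may still hold weak signal. Intervals printed beside fragment numbers are exact Poisson 95% intervals and cover counting error only.

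Rb peaks were found at the promoters of 7 and 12 of the 56 genes in the DMSO libraries and of 52 and 50 in the abemaciclib libraries. The means were 9.50 ± 3.54 (SD, n = 2) for DMSO and 51.0 ± 1.41 (SD, n = 2) for abemaciclib, a difference of 41.5 genes and a ratio of 5.37. The treatments did not overlap, but with 2 libraries against 2 the two-sided exact permutation test cannot go below p = 0.333, which is the value it gave. No gene of the 56 had a peak in the IgG2a library. Among the other 19914 protein-coding genes, 7.85% and 12.4% were bound in the DMSO libraries, 57.9% and 53.8% in the abemaciclib libraries and 0.0301% in IgG2a, a ratio between treatments of 5.51. The proportional gain of the chromatin genes was therefore close to that of the rest of the genome, while their level was higher in every Rb library.

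The difference in level also appeared in the set of libraries that bound each gene. Peaks in both abemaciclib libraries were present at 49 of the 56 genes (87.5%), against 52.6% of the other genes, and a peak in at least 1 DMSO library at 15 (26.8%), against 13.8%. By pattern, 4 genes were bound in all 4 Rb libraries (7.14% against 6.41% of the other genes), 11 in both abemaciclib libraries and 1 DMSO library (19.6% against 7.36%), 34 in both abemaciclib libraries and no DMSO library (60.7% against 38.8%), and 4 in 1 abemaciclib library (7.14% against 6.53%). No peak was found in any Rb library for 3 genes (5.36% against 40.8%). The longer DMSO list, replicate 2, supplied 8 of the 11 genes with a peak in only 1 DMSO library.

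**Figure D1:**
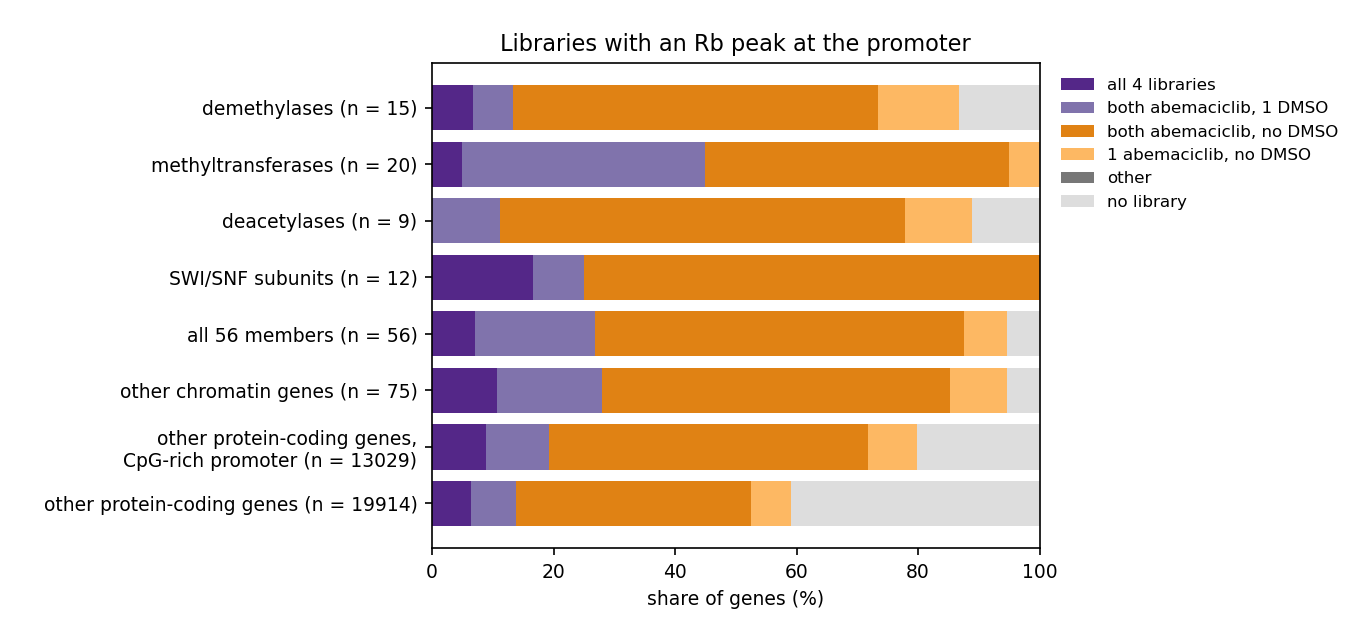
Share of genes (x axis, in percent) with an Rb peak at the promoter in each set of libraries, for the 4 families, all 56 genes, 75 further chromatin genes and the other protein-coding genes, the last also restricted to CpG-rich promoters. The 2 purple and the dark orange segments together are the genes with peaks in both abemaciclib libraries, 87.5% of the 56 genes and 52.6% of other genes; each purple segment needs a DMSO peak as well.

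These promoters differed from the average promoter in ways that bear on such a comparison. The 56 genes had a median of 15.5 annotated start sites against 5.00 for the others, and a median of 15694 bp inside the counting window against 5536 bp. With the canonical start of each gene alone, 48 of the 56 (85.7%) were bound in both abemaciclib libraries and 15 (26.8%) in any DMSO library, against 49.2% and 12.5% of the other genes. CpG-rich promoters (at least 50% GC and an observed-to-expected CpG ratio of at least 0.6 over 300 bases) were found for 55 of the 56 genes, all except HDAC8, and for 65.4% of the others. Within CpG-rich promoters, 48 of 55 genes (87.3%) were bound in both abemaciclib libraries, 15 (27.3%) in any DMSO library and 3 (5.45%) in none, against 71.8%, 19.3% and 20.1% of the other genes. The gap to the other genes was smaller within CpG-rich promoters, and the part of start-site number and CpG content in it was not tested.

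The peaks at these promoters were broad after abemaciclib. Their median width was 246 and 237 bp in the DMSO libraries and 964 and 958 bp in the abemaciclib libraries, 242 ± 6.36 against 961 ± 3.89 bp (SD, n = 2 each; exact permutation p = 0.333, the smallest possible). At the other protein-coding genes the medians were 279 and 268 bp in DMSO and 854 and 796 bp in abemaciclib. The widest peak over any of the 56 genes was at SMARCA2, which encodes an ATPase of the complex, with 3342 bp in abemaciclib replicate 1 and 3533 bp in replicate 2.

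**Figure D2:**
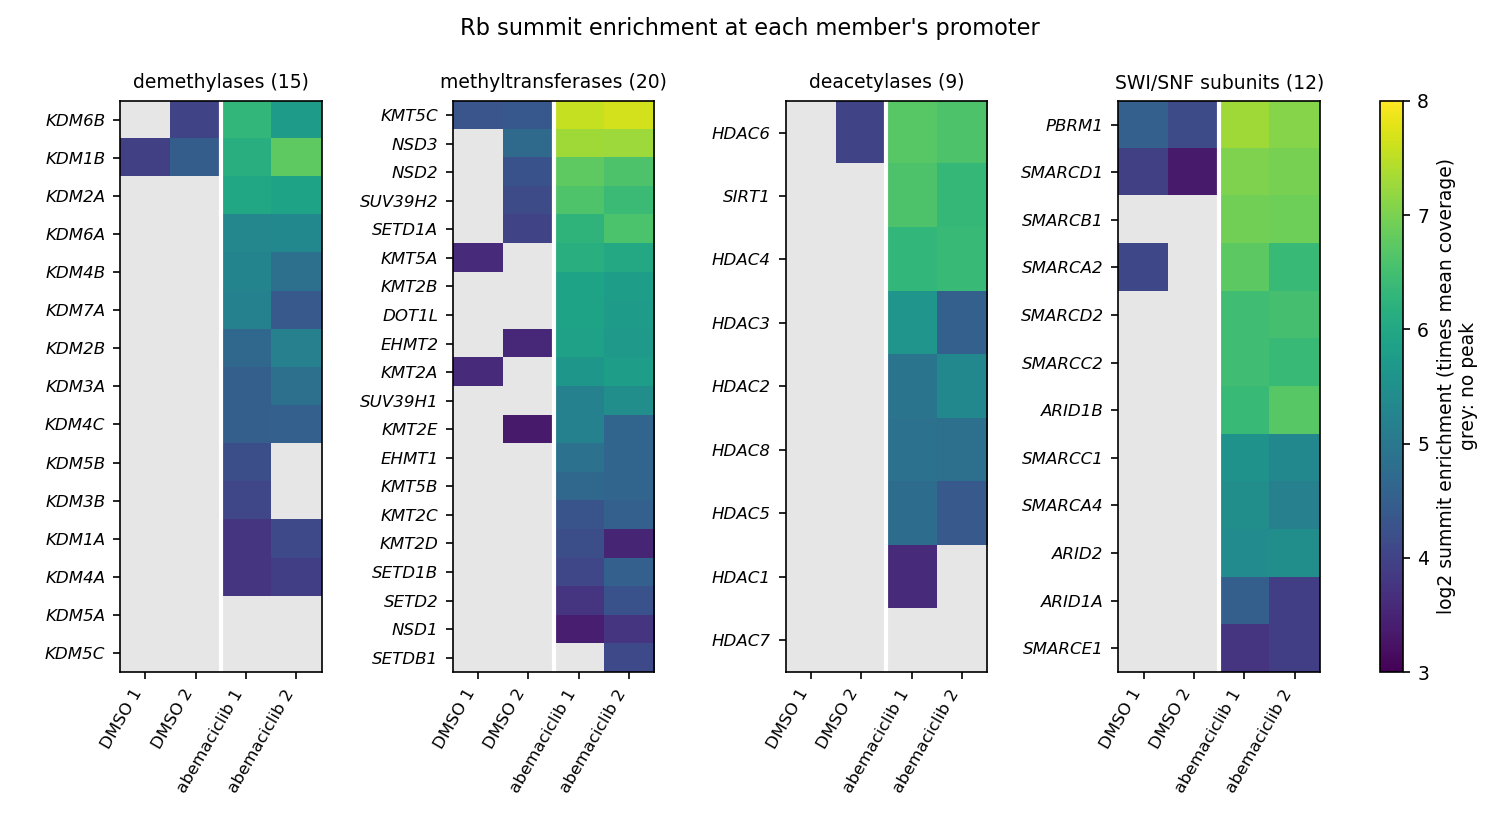
Summit enrichment (colour, log2 of times mean coverage) at the promoter of each of the 56 genes (rows, by family, ordered by abemaciclib replicate 1) in the 4 Rb libraries (columns); grey means that no peak was called. The DMSO columns are mostly grey, with 7 and 12 coloured cells, and the abemaciclib columns mostly coloured, with 52 and 50.

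Of the 4 genes bound in all 4 libraries, KMT5C had the highest summits of all 56 with abemaciclib. It encodes a methyltransferase that di- and trimethylates histone H4 lysine 20, and its protein is among those known to bind Rb. The bound region was chr19:55338834-55340384 (GRCh38). Over the summit lay 13 fragments (interval 6.92 to 22.2) in DMSO replicate 1 and 14 (7.65 to 23.5) in DMSO replicate 2. With abemaciclib there were 123 (102 to 147) in replicate 1 and 106 (86.8 to 128) in replicate 2. As summit enrichment the DMSO mean was 20.3 and the abemaciclib libraries had 188 and 203, on average 9.61 times the DMSO mean. Both abemaciclib values lay well above both DMSO values, and their counting intervals did not meet. The peak ranked 309th and 229th by p-value in the abemaciclib lists. Its summit fell upstream of the canonical start (at −352 bp), in sequence outside any coding-gene exon, and a second region, chr19:55340577-55341680 in an intron, had peaks with abemaciclib only, at 76.2 and 74.8. The sequence under the KMT5C summit is shown because it holds a pair of CCAAT boxes, the word bound by the factor NF-Y (in capitals; plus strand, chr19:55339411-55339601):
KMT5C: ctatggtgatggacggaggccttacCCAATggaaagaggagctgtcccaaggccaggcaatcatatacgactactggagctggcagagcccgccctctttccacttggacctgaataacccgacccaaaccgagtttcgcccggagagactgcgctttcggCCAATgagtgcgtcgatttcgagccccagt

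The other 3 genes bound in all libraries encode a demethylase and a pair of SWI/SNF subunits. PBRM1 (BAF180) is the polybromo subunit that defines the PBAF form of the complex. Its summit enrichment was 23.1 and 17.7 in the DMSO libraries and 157 and 136 in the abemaciclib libraries, 7.18 times higher on average, at chr3:52685303-52686273. SMARCD1 (BAF60A), an accessory subunit that contacts transcription factors, had 15.4 and 10.3 in DMSO and 131 and 125 in abemaciclib, a ratio of 9.94 and the highest among the 15 genes with a DMSO peak (chr12:50084838-50085819). Its DMSO summits held only 10 and 7 fragments, and neither peak passed a q of at most 1e-05. KDM1B, a flavin-dependent H3K4 demethylase also called LSD2, had 15.4 and 22.2 in DMSO and 70.1 and 109 in abemaciclib, a ratio of 4.78 (chr6:18154669-18156374). In each of them the lower abemaciclib value was above the higher DMSO value, as it was in 100% of the 1277 other genes bound in all 4 libraries, so the separation was not particular to these genes. The median over the 4 genes was 17.7, 19.2, 144 and 130.5 in the order DMSO replicates 1 and 2, abemaciclib replicates 1 and 2, a ratio of 7.44 (exact permutation p = 0.333, the smallest possible, n = 2 per treatment), against a ratio of 7.84 for the other genes bound in all 4. Both PBRM1 and KDM1B share their region with a divergent neighbour, GNL3 with its start 163 bp from the summit and TPMT at 258 bp, so the peak cannot be assigned to either gene alone.

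None of these 3 summits had an E2F, CCAAT or cell cycle homology region (CHR) word in the 200 bp around it, and all 3 were rich in CpG. The 30 bases centred on each summit in abemaciclib replicate 1 are shown with CpG dinucleotides in capitals, on the strand of the gene, for KDM1B at chr6:18155321-18155350 (plus), PBRM1 at chr3:52685828-52685857 (minus) and SMARCD1 at chr12:50085273-50085302 (plus):
KDM1B: CGgCGgaaatgggcagggCGgagCGagCGc
PBRM1: gaCGgcagCGgcCGCGgcCGgaggagcaat
SMARCD1: CGgcCGggggaacaggCGggCGctCGgggg
Each of the 3 stretches held 5 CpG dinucleotides.

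A further 11 genes had peaks in both abemaciclib libraries and in 1 DMSO library, and 8 of them encode methyltransferases. Among the H3K36 methyltransferases, NSD3 had the highest DMSO summit enrichment of all 56 genes, at 26.6 in replicate 2 (18 fragments, interval 10.7 to 28.4), with no peak in replicate 1 and 156 and 155 with abemaciclib. By fold over local background NSD3 was not the highest in DMSO replicate 2, at 5.98 against 9.54 for KDM1B. NSD2, a close relative of NSD3 altered in myeloma, had 19.2 in DMSO replicate 2 and 108 and 97.8 with abemaciclib. NSD1, another enzyme of this kind, had no DMSO peak and only 10.7 and 13.4 with abemaciclib, below NSD2 and NSD3 in both libraries.

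The H3K4 methyltransferases of the MLL and SET1 type gave a similar spread. SETD1A, the catalytic subunit of a SET1 complex, had a peak of 16.2 in DMSO replicate 2 and summits of 76.2 and 95.9 with abemaciclib. KMT2A (MLL1), the gene rearranged in mixed-lineage leukaemia, was bound in DMSO replicate 1 at 12.3 and with abemaciclib at 50.3 and 55.6. KMT2E, a family member whose own enzymatic activity is doubtful, was bound in DMSO replicate 2 at 10.3 and with abemaciclib at 36.6 and 24.9, and its abemaciclib-to-DMSO ratio of 2.98 was the lowest of the 15. KMT2B, KMT2C, KMT2D and SETD1B had no DMSO peak. With abemaciclib their summits were 59.5 and 55.6, 19.8 and 23.0, 18.3 and 11.5, and 16.8 and 23.0 in replicates 1 and 2, so KMT2B alone of these 4 reached the level of KMT2A.

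The H3K9 and H4K20 methyltransferases with a peak in 1 DMSO library were SUV39H2, EHMT2 and KMT5A. SUV39H2, which trimethylates H3K9, had 17.7 in DMSO replicate 2 and 99.1 and 84.4 with abemaciclib. Its paralogue SUV39H1, whose protein binds Rb, had no DMSO peak and 36.6 and 44.1 with abemaciclib, below SUV39H2 in both libraries. EHMT2 (G9a), which mono- and dimethylates H3K9, had 11.8 in DMSO replicate 2 and 57.9 and 51.8 with abemaciclib. The EHMT2 summit lay 126 bp from its own start and 37 bp from that of C2, a complement gene, and its DMSO peak, ranked 2577th of 2582, was lost when the same p-value floor was set in every list. KMT5A, the cell cycle-regulated H4K20 monomethyltransferase, had 12.3 in DMSO replicate 1 and 71.7 and 65.2 with abemaciclib. Here the rank of the DMSO peak was 939th of 1438, in the shorter of the DMSO lists.

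The remaining 3 of the 11 come from the other families. KDM6B (JMJD3), an H3K27 demethylase, had 16.2 in DMSO replicate 2 and 79.3 and 53.7 with abemaciclib. HDAC6, a largely cytoplasmic enzyme that deacetylates tubulin, was the only deacetylase gene with a DMSO peak, 16.2 in replicate 2, and it had the highest deacetylase summits with abemaciclib, 104 and 97.8. SMARCA2 (BRM) had 16.9 in DMSO replicate 1 and 107 and 82.5 with abemaciclib. Over all 15 genes with a DMSO peak, every abemaciclib summit enrichment was above the DMSO values of the same gene. The ratio of the abemaciclib mean to the DMSO mean ran from 2.98 to 9.94 with a median of 5.37, and the lowest abemaciclib value was at least 2.41 times the highest DMSO value, as at KMT2E. The same separation held for 99.9% of the 2742 other genes with a DMSO peak and peaks in both abemaciclib libraries, whose median ratio was 6.41. By fold over local background KMT2E did not separate, at 4.77 in DMSO replicate 2 and 4.75 in abemaciclib replicate 2. The DMSO summits held 7 to 18 fragments, against 6 in the lowest callable peak, and the difference between a peak in 1 DMSO library and none in the other was not tested.

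**Figure D3:**
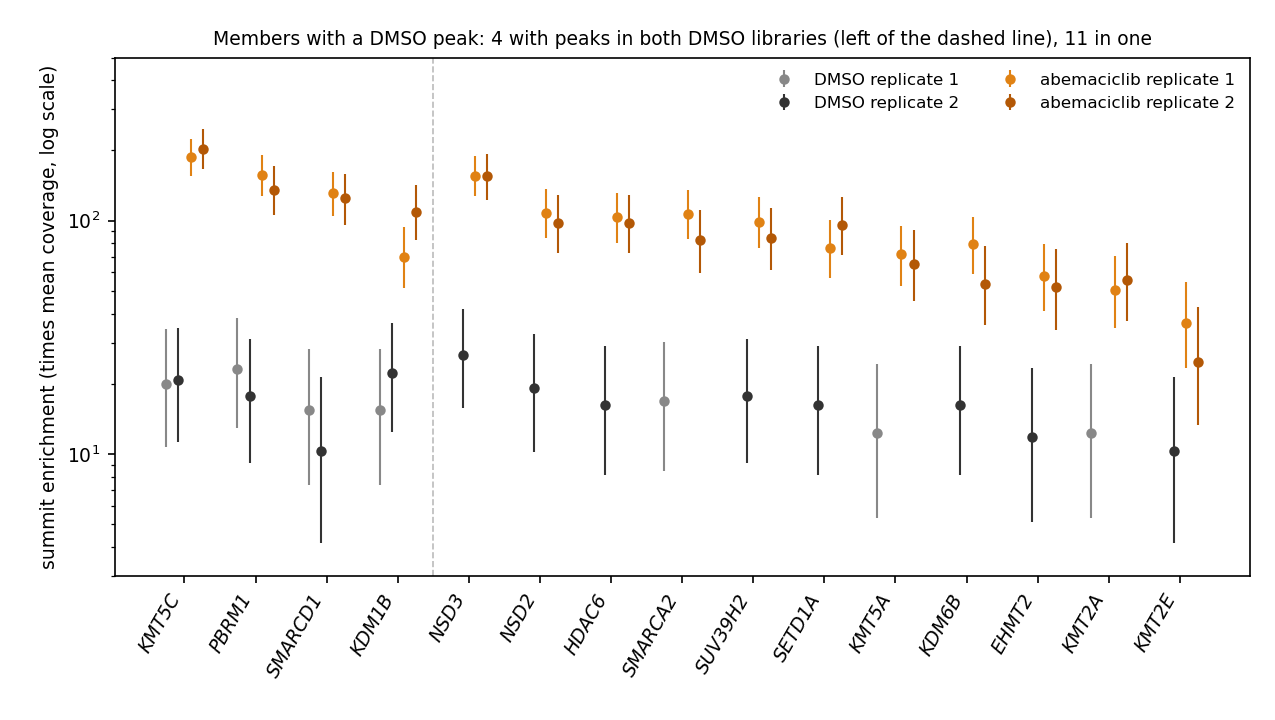
Summit enrichment (y axis, times mean coverage, log scale) of the 15 genes with a DMSO peak in each of the 4 Rb libraries; points are single libraries and bars their exact Poisson 95% counting intervals. The DMSO points run from 10.3 to 26.6 and the abemaciclib points from 24.9 to 203, and at KMT2E the intervals of the treatments overlap.

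Words for known Rb-linked factors were present under the summits of some of these genes. An E2F word (TTCCCGC or TTCGCGC or TTGCCGC or TTGGCGC on either strand) lay within 100 bp of the abemaciclib replicate 1 summit at KMT5A, NSD2, NSD3 and HDAC6 among the genes with a DMSO peak. At KMT5A the E2F word and a CCAAT box overlap, at 67 bp and 65 bp upstream of the summit. Both stretches are shown on the plus strand with the words in capitals, KMT5A at chr12:123384062-123384119, where the capitals join the E2F word (read on the minus strand) and the CCAAT box, and NSD2 at chr4:1870716-1870772, with an E2F word read on the minus strand:
KMT5A: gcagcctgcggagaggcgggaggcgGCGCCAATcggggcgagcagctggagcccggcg
NSD2: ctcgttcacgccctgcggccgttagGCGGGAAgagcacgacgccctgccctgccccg

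The frequency of these words under the summits was close to that at other bound genes. Of the 49 genes bound in both abemaciclib libraries, 9 (18.4%) held an E2F word, 9 (18.4%) a CCAAT box and 2 (4.08%) a CHR word (TTTGAA) within the 200 bp around the summit, against 18.8%, 20.4% and 3.72% of the 10467 other genes bound in both. Among the 15 genes with a DMSO peak, 4 (26.7%) held an E2F word, against 22.3% of 2742 other genes, and among the 34 without, 5 (14.7%), against 17.6% of 7725. In the 300 bases around the canonical start, an E2F word was found at 6 of the 15 and at 4 of the 34 (11.8%), against 32.5% and 20.9% of the other genes and 17.1% of all 19970 promoters. CCAAT boxes in that longer window were found at 16 of the 49 (32.7%), 37.9% of the other bound genes and 36.0% of all promoters.

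Of the 4 families, the demethylases had the lowest share of genes bound in both abemaciclib libraries and the lowest median summits there. Such peaks were present at 11 of 15 (73.3%), against 52.6% of the other genes and 71.8% of those with a CpG-rich promoter. DMSO peaks were present at 2 (13.3%), KDM1B and KDM6B, against 13.8% and 19.3%. Over those 11 genes the median summit enrichment was 36.6 in abemaciclib replicate 1 and 28.8 in replicate 2, against 45.7 and 42.2 over the other genes bound in both libraries. The 3 best ranked by p-value in abemaciclib replicate 1 without a DMSO peak were KDM2A, KDM7A and KDM4B. KDM2A, an H3K36 demethylase whose zinc finger binds unmethylated CpG, had 64.0 and 59.5, KDM7A, which acts on H3K9 and H3K27, had 36.6 and 21.1, and KDM4B, an H3K9 demethylase, had 38.1 and 28.8. The other 6 with this pattern were KDM1A (LSD1), KDM2B, KDM3A, KDM4A, KDM4C and KDM6A (UTX), from 13.7 at KDM1A and KDM4A to 39.6 at KDM6A in abemaciclib replicate 1. The KDM6A summits, 39.6 and 40.3, were higher than those of KDM7A and KDM4B in both abemaciclib libraries. KDM4B carried the densest cluster of CCAAT boxes of these genes, 4 within the 200 bp around its summit, all upstream of its start (capitals; plus strand, chr19:4968883-4969080):
KDM4B: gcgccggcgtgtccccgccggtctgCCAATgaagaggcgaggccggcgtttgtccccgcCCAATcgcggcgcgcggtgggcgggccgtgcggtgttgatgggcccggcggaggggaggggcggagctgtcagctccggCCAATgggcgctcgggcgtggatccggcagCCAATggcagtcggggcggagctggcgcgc

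Of the 3 KDM5 genes, whose products remove H3K4 di- and trimethylation, 2 had no peak in any Rb library, against 40.8% of the other genes and 20.1% of those with a CpG-rich promoter. These 3 genes were singled out after their values were seen, and no test was made. KDM5A had no peak in any library over its 11 annotated starts, and the nearest peak to its canonical start lay 70225 bp away in abemaciclib replicate 1 and 70536 bp away in replicate 2. KDM5C had none over 19 starts, with the nearest peak at 56107 bp and 130686 bp. KDM5B had a peak in abemaciclib replicate 1 at 18.3 (12 fragments) and a second at 16.8, and none in replicate 2, where the nearest peak lay 2112 bp from the canonical start. All 3 promoters met the CpG criterion. Below are the 30 bases just before the canonical KDM5A start, given as an unbound example (minus strand, chr12:389321-389350, CpG in capitals), where 2 CpG dinucleotides were present:
KDM5A: ttcCGtttcctgcagggggCGgagggattt

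The methyltransferases had the largest share of genes with a DMSO peak, 9 of 20 (45.0%), against 13.8% of the other genes and 19.3% of those with a CpG-rich promoter. Many of these DMSO peaks were weak. At a q of at most 1e-05, KMT5C, SUV39H2, NSD2 and NSD3 kept one, and KMT2A, KMT2E, KMT5A, SETD1A and EHMT2 had none left. In the other families, only SMARCD1 was left without a DMSO peak at that q. Peaks in both abemaciclib libraries were present at 19 of 20 (95.0%), against 52.6% and 71.8%. At a q of at most 1e-05 this count was 16. The exception in the full lists was SETDB1, an H3K9 methyltransferase, with a peak of 17.3 (9 fragments) in abemaciclib replicate 2 and none in replicate 1, whose nearest peak was 47396 bp from the canonical start. The median enrichment over the 19 genes was 50.3 and 51.8, but the range was wide, from 10.7 at NSD1 to 188 at KMT5C in replicate 1. DOT1L, KMT2B and SUV39H1 ranked best in abemaciclib replicate 1 of the 10 genes gained with abemaciclib alone, DOT1L, the H3K79 methyltransferase, at 59.5 and 53.7. The DOT1L summit lay 1225 bp inside the gene and 955 bp from the start of AP3D1, so this peak is nearer to its neighbour. Others with this pattern not yet given were KMT5B, at 25.9 and 24.9, SETD2, the enzyme that trimethylates H3K36, at 13.7 and 19.2, and EHMT1, the partner of EHMT2, at 29.0 and 24.9.

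Among the deacetylases, 7 of 9 (77.8%) had peaks in both abemaciclib libraries, against 52.6% of the other genes and 71.8% of those with a CpG-rich promoter. Their median enrichments were 48.8 and 40.3. The 3 best ranked by p-value in abemaciclib replicate 1 without a DMSO peak were SIRT1, HDAC4 and HDAC3. SIRT1, an NAD-dependent enzyme, had 97.6 and 80.6, HDAC4, a class IIa enzyme, had 79.3 and 82.5, and HDAC3, the catalytic subunit of the NCoR and SMRT corepressors, had 48.8 and 23.0. The HDAC3 summit was 66 bp from the start of the divergent gene RELL2 and 229 bp from its own. In abemaciclib replicate 2 the HDAC3 peak ranked only 11723rd of 12234, and it did not pass a q of at most 1e-05. HDAC2, HDAC5 and HDAC8 were also gained with abemaciclib alone, at 30.5 and 40.3, 27.4 and 21.1, and 29.0 and 28.8. HDAC1, the closest relative of HDAC2, had a peak of only 12.2 (8 fragments) in abemaciclib replicate 1, over its canonical start, and none in replicate 2, where the nearest was 50976 bp away. HDAC7, another class IIa enzyme, had no peak in any Rb library over 28 starts and its nearest peaks with abemaciclib lay 45817 and 45884 bp from the canonical start.

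Every SWI/SNF gene, 12 of 12, had peaks in both abemaciclib libraries, against 52.6% of the other genes and 71.8% of those with a CpG-rich promoter, and 3 of 12 had a DMSO peak, against 13.8% and 19.3%. At a q of at most 1e-05, 11 of the 12 kept peaks in both abemaciclib libraries, and SMARCE1 had none in replicate 2. Median enrichment was 86.2 in abemaciclib replicate 1 and 82.5 in replicate 2, the highest of the 4 families in each library, against 45.7 and 42.2 for the other bound genes. These medians are a description of 12 genes, and the difference between families was not tested. SMARCB1, the core subunit lost in rhabdoid tumours, had 122 and 119 without any DMSO peak. SMARCC2, a scaffold subunit, had 88.4 and 82.5, and SMARCD2, a paralogue of SMARCD1, had 88.4 and 92.1, also without a DMSO peak. By summit enrichment SMARCB1 was above SMARCA2 in both abemaciclib libraries, while SMARCC2 and SMARCD2 were below SMARCA2 in replicate 1. By fold over local background SMARCB1 was below SMARCA2 in both, at 27.1 and 21.4 against 42.9 and 28.9. It was also below SMARCC2 and SMARCD2 in both by that measure. ARID1B, a DNA-binding subunit of the BAF form, followed at 83.9 and 104. The other ATPase gene, SMARCA4 (BRG1), had 44.2 and 36.4, below SMARCA2 in both abemaciclib libraries. The remaining genes were SMARCC1 at 47.3 and 40.3, ARID2 at 42.7 and 44.1 and SMARCE1 at 13.7 and 15.3. ARID1A, whose product is an alternative to that of ARID1B in the same complex, was at 22.9 and 9.59 beside its canonical start and at 13.7 and 15.3 in a second region, below the strongest ARID1B region in both libraries.

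**Figure D4:**
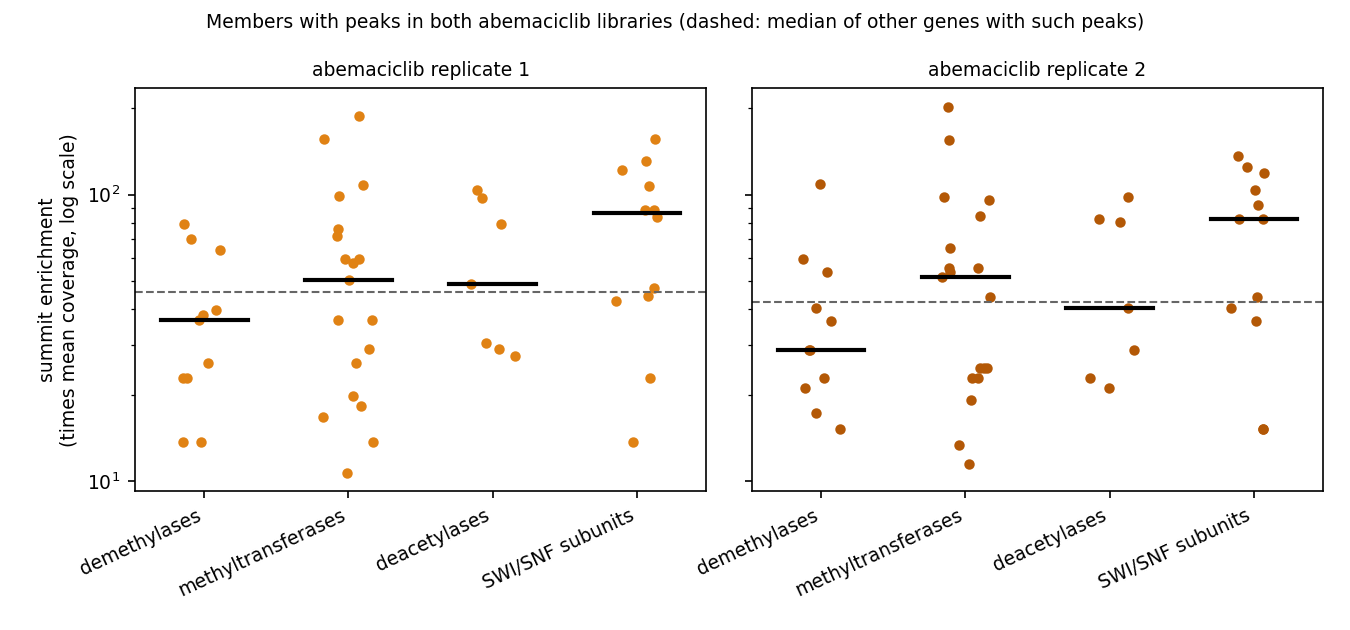
Summit enrichment (y axis, times mean coverage, log scale) of the genes with peaks in both abemaciclib libraries, by family, in abemaciclib replicate 1 (left) and replicate 2 (right); points are genes, black bars family medians and the dashed line the median of the 10467 other genes bound in both. The SWI/SNF medians of 86.2 and 82.5 lie above the dashed lines at 45.7 and 42.2, and the demethylase medians of 36.6 and 28.8 below.

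Genes of the 9 proteins known to bind Rb did not share a pattern. KMT5C was bound in all 4 libraries, SMARCA2 in 3, HDAC2, HDAC3, SMARCA4, SUV39H1 and KMT5B in both abemaciclib libraries alone, HDAC1 in 1 and KDM5A in none. Peaks in both abemaciclib libraries were therefore found at 7 of 9 (77.8%), against 49 of all 56, 52.6% of the other genes and 71.8% of those with a CpG-rich promoter. Summits of the 7 in replicate 1 ran from 25.9 at KMT5B to 188 at KMT5C.

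Peaks were counted only within the promoter window, which by itself keeps them near a start site. In abemaciclib replicate 1, 52 genes had a peak, and the strongest summit of 49 of them was within 500 bp of a start of the same gene, with a median distance of 128 bp against 118 bp for the 11532 other genes with a peak. By annotation, 18 of these summits were upstream of the gene, 17 in introns, 14 in untranslated exon sequence and 3 in coding exons. For 9 genes the strongest region also overlapped the promoter window of another coding gene, and for 4, SETD1B, EHMT2, DOT1L and HDAC3, the neighbour's start was nearer to the summit. At SETD1B the neighbour was RHOF, at 109 bp.

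**Figure D5:**
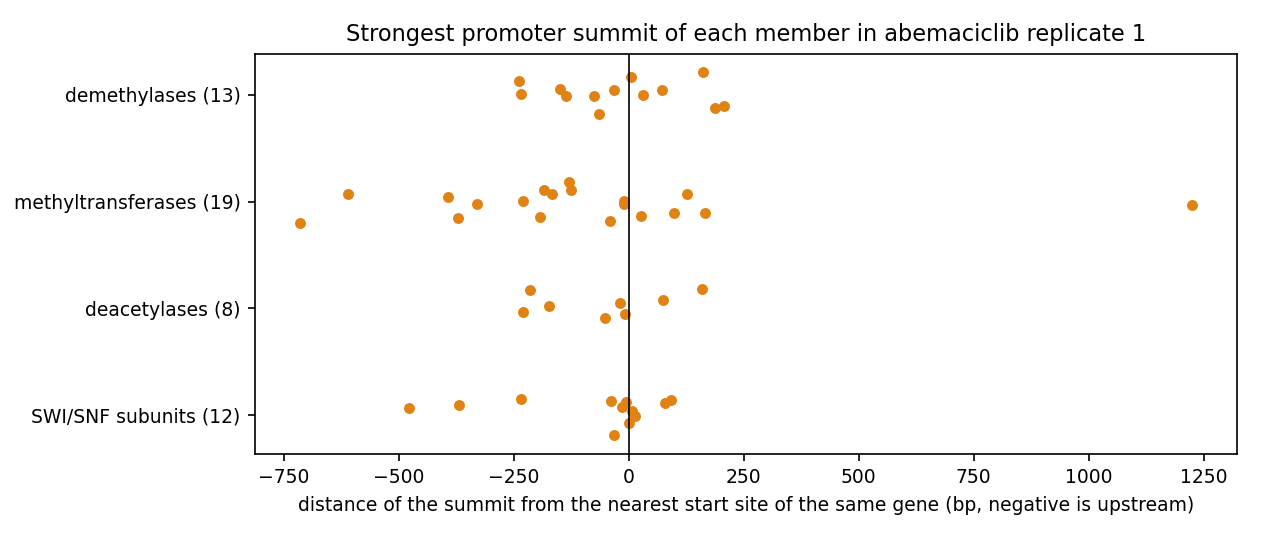
Distance in bp (x axis, negative is upstream) from the strongest abemaciclib replicate 1 summit of each of 52 genes to the nearest start site of the same gene, by family; points are genes, spread vertically at random within a family. Summits of 49 genes lie within 500 bp of 0, and DOT1L, at 1225 bp, is farthest.

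Several genes were bound at more than 1 place. The 4 Rb libraries gave 75 separate promoter regions at 53 genes, 36 genes with 1, 12 with 2 and 5 with 3. ARID1B had its strongest region, chr6:157020838-157022299, near an internal start, with its summit 244539 bp from the canonical one, at 83.9 and 104, while the regions nearer to the canonical start had 30.5 and 19.2 and then 18.3 and 11.5. KDM2B was likewise bound most strongly near an internal start, with its summit 43331 bp from the canonical one, at 25.9 and 36.4, and near the canonical start had a peak of 13.7 in abemaciclib replicate 1 alone. These were the only genes whose strongest summit lay over 2000 bp from the canonical start. KDM2A had a second region 121654 bp into the gene, at 41.2 and 40.3, and a weaker peak of 10.7 upstream in replicate 1. KMT5A had a second region at an internal start, chr12:123388495-123389513, at 59.5 and 55.6, where no DMSO peak was called. KMT2A and HDAC5 had a second region in both abemaciclib libraries, at 30.5 and 21.1 and at 13.7 and 13.4.

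Other second regions were weaker or found in 1 library. Extra peaks in abemaciclib replicate 1 alone were present at KDM6B (13.7 in each of 2), KMT2B (13.7 and 12.2), NSD3 (16.8) and ARID2 (9.15), and in replicate 2 alone at HDAC8 (17.3). KMT2E had an extra peak in each abemaciclib library, 18.3 in replicate 1 and 9.59 in replicate 2, that did not overlap. At 2 genes, KMT2D and NSD1, the replicates bound separate stretches, so that no region at either gene was shared by both abemaciclib libraries. At KMT2D these lay at 18.3 upstream of the start and 11.5 downstream of it.

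Peaks inside the genes but outside every promoter window were few. There were 13 such regions in 10 of the 56 genes, 6 of them in both abemaciclib libraries, 7 in 1 and none in a DMSO library. The highest was in KDM2B, chr12:121466705-121468005, at 67.1 and 55.6, above that gene's promoter summits. SIRT1 had a region 968 bp past its nearest start at 47.3 and 23.0, and DOT1L had a pair, at 30.5 and 13.4 and at 13.7 and 13.4. KDM3B, counted as bound in abemaciclib replicate 1 alone at 16.8, had a region in both abemaciclib libraries 909 bp past its start, at 12.2 and 17.3, just beyond the 500 bp limit of the window. Just inside the 2000 bp limit, an extra KDM6B peak had its summit at −1924 bp.

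A wider list of 75 further chromatin genes gave nearly the same shares as the 56. Peaks in both abemaciclib libraries were found at 64 (85.3%), against 52.6% of all genes outside the 56 and 71.8% of those with a CpG-rich promoter. A peak in any DMSO library was found at 21 (28.0%), against 13.8% and 19.3%. No peak was found at 4 (5.33%, against 40.8% and 20.1%), KDM4E, SMYD1, SIRT4 and ACTL6B. By kind, both abemaciclib libraries bound 10 of 10 core subunits of the COMPASS H3K4 methyltransferase complexes, 9 of 10 acetyltransferases, 16 of 18 further methyltransferases, 16 of 19 further SWI/SNF subunits, 7 of 9 further deacetylases and 6 of 9 further demethylases. Demethylases again had the lowest share, but 6 of 9 is close to the 7 of 9 of the deacetylases, and the difference was not tested. The 8 bound in all 4 libraries (10.7%, against 6.41% and 8.92%) were PRDM2, CARM1, SIRT2, ACTL6A, KAT7, HAT1, ASH2L and WDR82. They encode methyltransferases (PRDM2 and CARM1), a sirtuin, a SWI/SNF actin-related subunit, acetyltransferases (KAT7 and HAT1) and COMPASS subunits (ASH2L and WDR82).

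Setting the lists to equal length changed what could be counted. When each Rb list was cut to its 1438 strongest peaks, 7, 7, 8 and 8 of the 56 genes were bound, and 7.85%, 7.65%, 8.57% and 8.55% of the other genes. KMT5C was then the only gene of the 56 bound in all 4 libraries, and none was bound in both abemaciclib libraries and no DMSO library, against 1.12% of the other genes. NSD2, NSD3, HDAC6, SMARCD1 and PBRM1 were bound in both abemaciclib libraries and 1 DMSO library. Every gene of the 56 bound in an abemaciclib library at this list length, except ARID1B, also had a DMSO peak in the full lists.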

How the data were processed

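Peak lists from 5 libraries were analysed. The authors trimmed reads with BBDuk, aligned them to hg38 with Bowtie2 2.3.4.1, removed mitochondrial and blacklisted reads, retained duplicates and called peaks per library with MACS2 2.2.7.1 at q of 0.05 against IgG (versions from the submitters' processing notes). Each deposited list gives peak positions and summits, a fold (a ratio of pileup plus 1 to local background plus 1) and −log10 p- and q-values. Replicates were described as independent samples; groups and replicate numbers came from sample titles.

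Start sites were from GENCODE 44 on GRCh38, with no peak ending beyond that reference. Whole-number summit pileups and backgrounds were solved from fold and p at a tolerance of 0.001 (100% of peaks); the lowest recurrent background was taken as mean coverage, an assumption about the peak caller. The assignment of peaks to promoters and the solved pileups were tested on simulated data, and the estimate of mean coverage was not. The counts of bound genes, median widths and median enrichments were compared by a two-sided exact permutation test over 2 against 2 libraries, whose smallest p is 0.333. Peak lists hold no read counts, so no count model was fitted. Python 3.11.15, scipy 1.17.1, pysam 0.24.0 and samtools 1.23.1 were used.

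The genes and lists were chosen with earlier results of these data known. Every gene of the list was named with its pattern. Values in each library were given for genes with a DMSO peak, without any peak or with several regions, for the 3 best ranked per family by p in abemaciclib replicate 1 among those gained with abemaciclib alone, and for proteins known to bind Rb. Alternatives were a stricter q, equal list lengths, summits in the window, canonical starts, a narrower window, removal of peaks over IgG2a peaks, each library left out and, for motifs, another window, summit or q. A common p-value floor and the replicate block were added after the data were seen.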

Additional observations from a re-analysis of the deposited data

How the results depend on the processing

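The direction of the differences between treatments in bound genes, peak width and summit enrichment was the same under every alternative run for them. Peak width and summit enrichment were not compared with equal list lengths, a narrower window or removal of peaks over IgG2a peaks. With the same number of strongest peaks per list the difference in bound genes shrank from 41.5 to 1.00, the genes bound in both abemaciclib libraries fell to 0 demethylases, 3 methyltransferases, 1 deacetylase and 2 SWI/SNF genes, those bound there without a DMSO peak to 0 and those bound in all 4 to 1, and those without any peak rose to 43; this follows from the shorter abemaciclib lists. A q of at most 1e-05 left 2 genes, KDM1B and KMT5C, bound in all 4 libraries and 7 in none. At that q, 11 demethylases, 16 methyltransferases, 6 deacetylases and 11 SWI/SNF genes were bound in both abemaciclib libraries. With a common floor of 5.10 in −log10 p, 35 genes were bound in both abemaciclib libraries and no DMSO library and 4 in all 4. CCAAT boxes were found at 32.7% of bound genes in the window around the canonical start, against 18.4% around the summit.

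Leaving out each library in turn, the difference in bound genes ran from 39 to 44, genes bound in all the libraries left from 4 to 12 (7 without DMSO replicate 2, 12 without DMSO replicate 1), genes without a peak from 3 to 6 (6 without abemaciclib replicate 1), and genes gained with abemaciclib alone from 35 to 42. The enrichment ratio ran from 5.86 to 7.81, the width ratio from 3.91 to 4.05, and the family counts from 11 to 13, 19 to 20, 7 to 8 and 12 throughout in the order demethylases, methyltransferases, deacetylases and SWI/SNF.

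With same-numbered libraries as a replicate block, the difference stayed 41.5 (45 and 38 by pair), the width ratio 3.98 and the enrichment ratio 7.44, each with an exact sign-flip p of 0.5, the smallest that 2 pairs allow. The labels do not say what a number shares, and over 1281 genes bound in all 4 libraries the replicate differences of the treatments correlated at −0.091. The DMSO summits held 7 to 18 fragments, which leaves wide counting intervals on their heights. The IgG2a control came from DMSO-treated cells alone, and abundance of the encoded RNAs or proteins was not measured in these libraries.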
